A study of Homo sapiens with 4 samples.

Results

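The genes described here encode the ligands, antagonists and intracellular partners of NODAL signalling: NODAL, GDF3, TDGF1, LEFTY1, LEFTY2, FOXH1, SMAD7 and SKIL. They were chosen by symbol, and all 8 were among the 19775 genes of the deposited table. The cells were H1, an established line of human embryonic stem cells with the genotype WT, kept in E8, a defined medium with insulin, FGF2 and TGFβ. The treated group had 2 libraries, replicate 1 and replicate 2, from cells exposed for 12 h in this medium to 1 µM XMD892, an inhibitor of the kinase ERK5. The labels also give 2 samples in E8 alone for 12 h, which were not analysed here, so the values are levels in treated cells and no effect of the compound is described.

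NODAL is a secreted ligand of the TGFβ family that keeps primed human pluripotent cells from differentiating, and TGFβ or activin in a defined medium can stand in for it. It binds activin receptors with the help of a co-receptor, TDGF1 (Cripto), and the receptors phosphorylate SMAD2 and SMAD3, which enter the nucleus with SMAD4 and bind DNA beside FOXH1. LEFTY1, LEFTY2 and SMAD7 are induced by the pathway and restrain it, and SKIL is a SMAD repressor that is itself a target.

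Promoter windows from the RefSeq table (GRCh38.p14, 250 bases before to 50 after the start) are described for 4 of the 8 genes. These genes are NODAL, GDF3, SMAD7 and SKIL, and the count does not show that the other members lack a window there. Only the windows of the ligands are printed, a choice made after their values were seen. Both genes were higher in replicate 2, but so was SMAD7. Capitals mark the SMAD box CAGAC, or GTCTG on the other strand, and the FOXH1 core AATNCACA on either strand. The NODAL window lies at chr10:70441632-70441931 and the GDF3 window at chr12:7695726-7696025, both on the minus strand and printed 5′ to 3′.
NODAL: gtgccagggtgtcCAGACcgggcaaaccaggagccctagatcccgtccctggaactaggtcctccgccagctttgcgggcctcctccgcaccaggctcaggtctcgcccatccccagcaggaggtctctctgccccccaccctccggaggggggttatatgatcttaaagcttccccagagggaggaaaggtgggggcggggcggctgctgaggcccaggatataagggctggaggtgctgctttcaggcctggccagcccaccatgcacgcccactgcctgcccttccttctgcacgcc
GDF3: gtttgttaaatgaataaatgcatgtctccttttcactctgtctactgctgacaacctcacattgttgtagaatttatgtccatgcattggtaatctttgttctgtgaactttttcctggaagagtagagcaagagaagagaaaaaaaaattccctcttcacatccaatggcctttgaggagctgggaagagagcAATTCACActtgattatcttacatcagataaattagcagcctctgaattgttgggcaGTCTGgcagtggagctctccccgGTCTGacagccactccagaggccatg
The NODAL window held 1 SMAD box and 0 FOXH1 cores. It lies inside the gene's annotated span, which reaches base 70447951, so the start at that end is not covered. The GDF3 window held 2 SMAD boxes, both after the start, and 1 FOXH1 core before it. The 3 SMAD7 windows, not printed, held 0, 1 and 2 SMAD boxes, and the SKIL window held 1. Each of these held 0 FOXH1 cores. A SMAD box was present in 45.3% and a FOXH1 core in 3.31% of 35116 windows of this length. These motifs do not overlap in the windows shown, and a match is a description of letters only.

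The cells carried the transcripts listed as markers of primed pluripotent cells. Each library held all 8 of these above 1 RPKM, and their median was 148 RPKM. Markers of other pluripotent states were not examined, so the list does not tell such states apart. RPKM here is the normalized count per kilobase of merged exon and per 1000000 of the mean normalized library total. Of 5 definitive endoderm markers only CXCR4 was listed, at 0.609 and 0.460 RPKM. The libraries held 18528689 and 20217648 reads on listed genes.

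By mean level the co-receptor and the intracellular partners were the most abundant members, and the ligands and LEFTY antagonists were lower, although GDF3 stood above SMAD7 in replicate 2. Of the 8 genes, 7 reached 1 RPKM in both libraries, and their median mean level was 10.2 RPKM. The median over the 19263 genes with a length was 2.31 RPKM. In a bulk sample, fewer cells with a transcript and less of it per cell cannot be told apart.

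**Figure D1:**
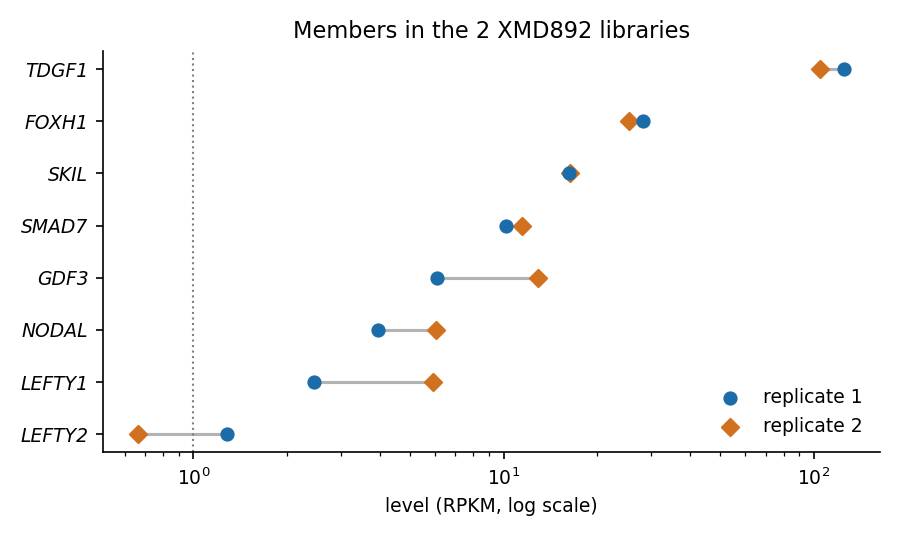
Level of each member in RPKM (log axis) in replicate 1 (circles) and replicate 2 (diamonds); the dotted line is 1 RPKM. TDGF1 is highest at 126 and 105 RPKM, and LEFTY2 is lowest at 1.28 and 0.663 RPKM.

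NODAL had 128 reads in replicate 1 and 200 in replicate 2, or 3.94 and 6.05 RPKM (mean 4.99 ± 1.49, SD, n = 2). The gene (minus strand) spans chromosome 10 from base 70432315 to 70447951 in GRCh38, the build of all gene positions here. In the order of mean levels it ranked 6936th of 19263. GDF3, a related ligand that acts through the same co-receptor, had 145 and 313 reads, or 6.09 and 12.9 RPKM. Its span on chromosome 12, minus strand, runs from 7689782 to 7695776, with a single annotated transcript. GDF3 exceeded NODAL per length in both libraries, by 1.55-fold in replicate 1 and 2.14-fold in replicate 2. Both ligands were higher in replicate 2. With merged exons as the length, the levels of NODAL and GDF3 did not overlap, but only narrowly: 6.05 RPKM for NODAL in replicate 2 against 6.09 for GDF3 in replicate 1. With the longest NODAL transcript as the length (1665 bases, against 1693 of merged exon), they overlap.

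TDGF1, the membrane-anchored co-receptor, had 7258 and 6151 reads, or 126 and 105 RPKM (mean 115 ± 14.8, SD, n = 2). It ranked 279th of 19263 genes, and its plus-strand span on chromosome 3 runs from 46574534 to 46582463. The transcript of the co-receptor exceeded that of NODAL 31.9-fold per length in replicate 1 and 17.3-fold in replicate 2. The ratio depends on the length used: that of the mean levels was 23.1 with merged exons and 77.7 with coding length. Against GDF3 the excess was 20.6-fold and 8.10-fold. These ratios were smaller in replicate 2, where both ligands were higher and TDGF1 was lower.

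LEFTY1, a secreted antagonist that blocks the ligands and the co-receptor, had 89 and 218 reads, or 2.45 and 5.90 RPKM. Its relative LEFTY2 had 59 and 31 reads, or 1.28 and 0.663 RPKM. The pair are neighbours in minus orientation on chromosome 1, LEFTY1 from 225886282 to 225911382 and LEFTY2 from 225936598 to 225941489. LEFTY1 was the higher of the pair in both libraries, by 1.91-fold per length in replicate 1 and by 8.90-fold in replicate 2. The pair moved in opposite directions: LEFTY1 was higher in replicate 2 and LEFTY2 in replicate 1. Taken as a sum, which does not depend on how reads were split between the pair, they had 148 and 249 reads, 1.65-fold higher in replicate 2 (log2 difference 0.73, counting interval 0.43 to 1.03). LEFTY1 stood at 0.623 of the NODAL level in replicate 1 and at 0.976 of it in replicate 2.

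Reads of several members can be confused with those of other genes. Of the 75-base windows in LEFTY1 transcripts, 20.3% also occur in LEFTY2 and 44.6% in the annotated gene AL117348.2, which is not listed in the table. Of the LEFTY2 windows, 15.4% occur in LEFTY1, 15.3% in AL117348.2 and 4.28% in AL117348.1, which is not listed either. TDGF1 shares 21.1% of its windows with TDGF1P3, a pseudogene that had 42 and 44 reads. NODAL shares windows with no gene on its own strand, but 38.7% of them are covered on the other strand by AC022532.1 (19 and 9 reads). FOXH1 shares 28.7% on the other strand with KIFC2, a kinesin gene with 375 and 338 reads. The strand setting of the counting is not known, so reads of these opposite genes cannot be told apart from those of NODAL and FOXH1. GDF3, SMAD7 and SKIL shared no such window. The levels of the LEFTY genes, NODAL, FOXH1 and TDGF1 are therefore uncertain. A share of windows is not a share of reads, so the size of this uncertainty is not known. Its part in the values was not tested.

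**Figure D2:**
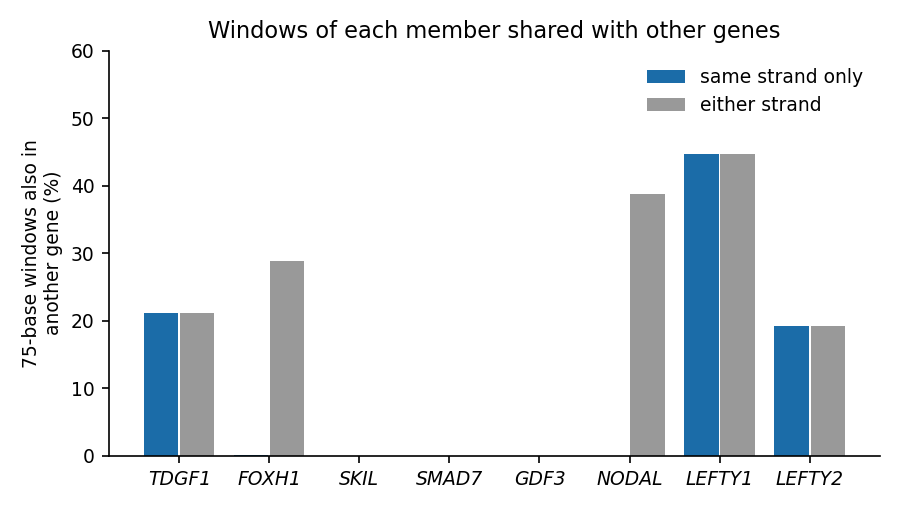
Share (%) of the 75-base windows of each member's GENCODE 29 transcripts that also occur in transcripts of another gene, on the same strand (blue) or on either strand (grey). LEFTY1 has the highest share at 44.7%, and SKIL, SMAD7 and GDF3 have 0.

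FOXH1, the forkhead factor that brings SMAD2 and SMAD3 to DNA, had 1351 and 1244 reads, or 28.1 and 25.4 RPKM. Its minus-strand span on chromosome 8 runs from 144473412 to 144476335. SKIL, which encodes the repressor SNON (chromosome 3, plus strand, from 170357678 to 170396835), had 2437 and 2491 reads, or 16.3 and 16.4 RPKM. SMAD7, an inhibitory SMAD that blocks receptor signalling, had 982 and 1124 reads, or 10.2 and 11.4 RPKM. The SMAD7 gene spans chromosome 18 from 48919853 to 48952052, minus strand. The intracellular members varied least between the libraries, and SKIL exceeded SMAD7 per length by 1.61-fold and 1.43-fold.

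By mean level the order was TDGF1, FOXH1, SKIL, SMAD7, GDF3, NODAL, LEFTY1 and LEFTY2. With merged exons as the length, neighbours in this order did not overlap over the libraries, with 2 exceptions. SMAD7 and GDF3 overlapped, with means of 10.8 ± 0.900 and 9.51 ± 4.84 RPKM (SD, n = 2), and so did NODAL and LEFTY1, at 4.99 ± 1.49 and 4.18 ± 2.44 RPKM. The order, and the separation of GDF3 from NODAL, depend on the length used. With coding length alone, TDGF1 reached 614 RPKM, and SKIL (62.0) stood just above FOXH1 (61.2).

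The 2 treated libraries differed most in the secreted members. LEFTY1 was 2.41-fold higher in replicate 2, GDF3 2.12-fold and NODAL 1.54-fold, while LEFTY2 was 1.94-fold higher in replicate 1. The others lay within 1.20-fold of each other. On the log2(normalized count + 1) scale, 2 of the 8 genes, LEFTY1 and GDF3, reached a gap of 2-fold, against 10.9% of the 16148 tested genes. Which genes these were depended on the scale: with total reads as the scale, GDF3 differed by 0.98 and LEFTY2 by -1.03, so that LEFTY1 and LEFTY2 passed. At a mean normalized count of at least 50, which all members but LEFTY2 reach, that share was 5.64%. The median absolute difference was 0.44 over the members and 0.32 over all tested genes. With 1 library on each side there is no replicate check of a difference, and no p-value is given. A further column of this treatment and time matched no sample and was not used as a check.

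**Figure D3:**
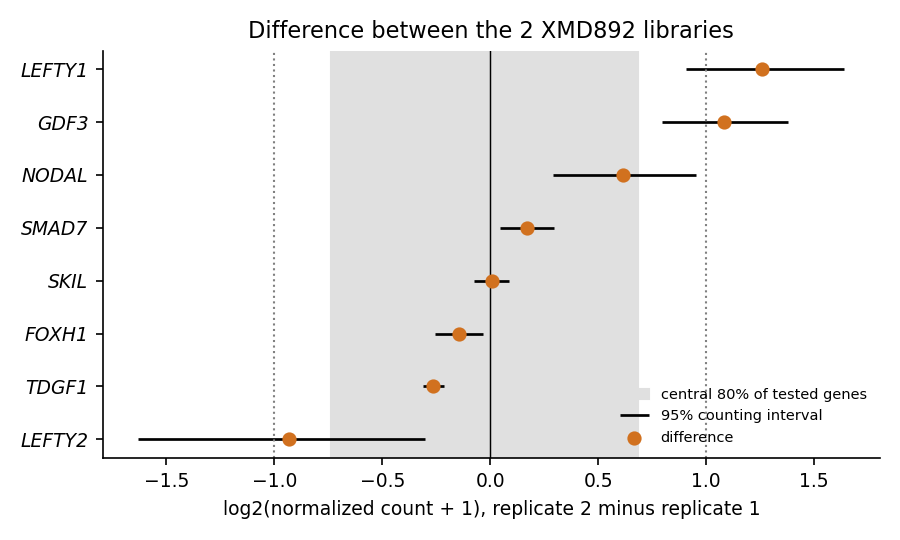
Difference of log2(normalized count + 1), replicate 2 minus replicate 1, for each member (dots) with its 95% counting interval (lines); the grey band holds the central 80% of tested genes (-0.74 to 0.69) and dotted lines mark 2-fold. LEFTY1 and GDF3 lie beyond 2-fold toward replicate 2, and LEFTY2 lies near it toward replicate 1.

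The counting interval excluded equal levels for 7 of the 8 members, against 58.1% of all tested genes, and this interval narrows with depth. For LEFTY1 the difference was 1.26 (interval 0.91 to 1.64, log2), and 6.55% of tested genes had a gap as large. GDF3 differed by 1.08 (0.80 to 1.38), a gap that 9.42% of tested genes reached. NODAL differed by 0.62 (0.29 to 0.95), which 24.8% of tested genes reached. LEFTY2, on the fewest reads, differed by -0.93 with a wide interval of -1.63 to -0.30. TDGF1, on the most reads, differed by -0.26 with a narrow interval of -0.31 to -0.21. FOXH1 differed by -0.14 (-0.26 to -0.032) and SMAD7 by 0.17 (0.045 to 0.30). SKIL, at 0.0069 (-0.074 to 0.088), was the member whose interval held equal levels, and its sign turned with TMM factors (-0.0023) and with total reads (-0.094) as the scale. The signs of the other 7 were the same on the 4 scales tried. Total reads as the scale put SMAD7 at 0.069, a shift of -0.10. In size this shift exceeds the lower bound of SMAD7 and the upper bound of SKIL. On that scale the interval of SMAD7 would hold equal levels and that of SKIL would not.

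**Figure D4:**
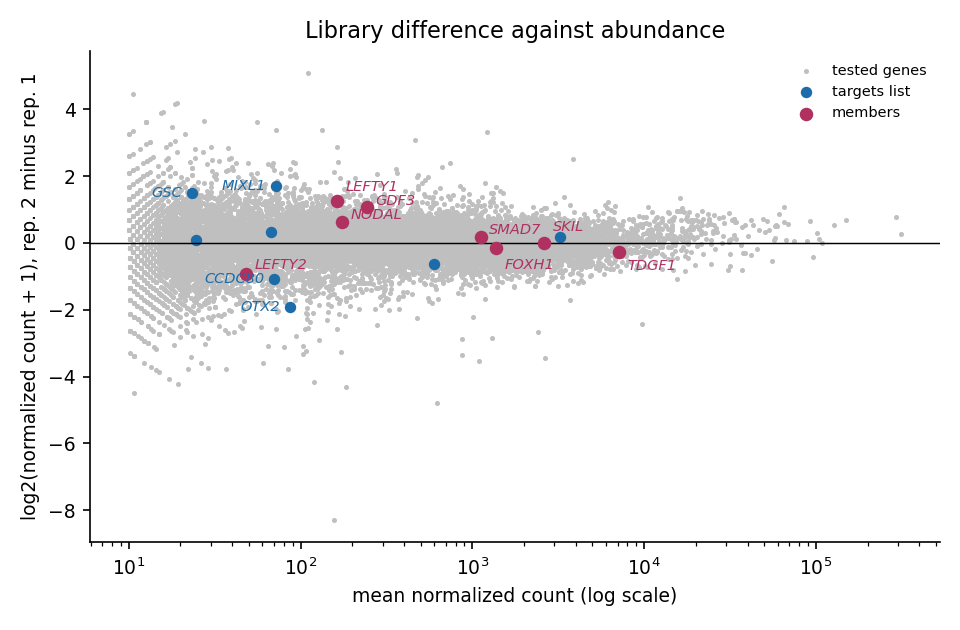
Difference of log2(normalized count + 1), replicate 2 minus replicate 1, against mean normalized count (log axis) for tested genes (grey), the members (red) and tested genes of the targets list (blue, named beyond 2-fold). SKIL (0.0069) and TDGF1 (-0.26) lie at high counts. LEFTY1, GDF3, MIXL1 and GSC lie beyond 2-fold toward replicate 2, and OTX2 and CCDC80 lie beyond it toward replicate 1.

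Other genes of the NODAL and activin pathway were grouped by role in 4 lists of 50 genes, of which 46 had a row in the table. The median of these was 2.97 RPKM, and 29 stood at 1 RPKM or more in each library. GDF1, CER1, DAND5 and CFC1, all of the extracellular list, were not listed. Beyond the members, then, the ligand GDF1, the antagonists CER1 and DAND5 and the co-receptor CFC1 have no value here.

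Of 12 listed extracellular genes, 6 reached 1 RPKM in both libraries. FURIN, a protease that cleaves the NODAL precursor, was the highest at 22.3 and 16.1 RPKM. LTBP1, which anchors latent TGFβ in the matrix, followed at 11.1 and 15.1 RPKM, and the ligand BMP7 at 6.83 and 8.99 RPKM. Of the 9 receptor genes, 6 reached that level. TGFBR1 was the highest at 14.4 and 13.8 RPKM, followed by the pseudoreceptor BAMBI at 9.25 and 9.49 RPKM and by ACVR1B, the type I receptor that NODAL uses, at 7.92 and 9.32 RPKM.

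Each of the 15 SMAD and cofactor genes stood above 1 RPKM in either library, and the median was 6.71 RPKM. DRAP1, a repressor that binds FOXH1, was the highest at 41.6 and 56.0 RPKM. TGIF2, a SMAD corepressor, stood at 24.4 and 25.6 RPKM, and SKI, the relative of SKIL, at 29.7 and 17.9 RPKM. SKI was 1.66-fold higher in replicate 1, while SKIL differed by less than its counting interval. In the SMAD and cofactor list, 0 of 15 genes reached a gap of 2-fold, as did 0 of 9 receptor genes and 0 of 11 tested extracellular genes. The share over all tested genes was 10.9%, so that counts of 0 in lists this short lie near the background.

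**Figure D5:**
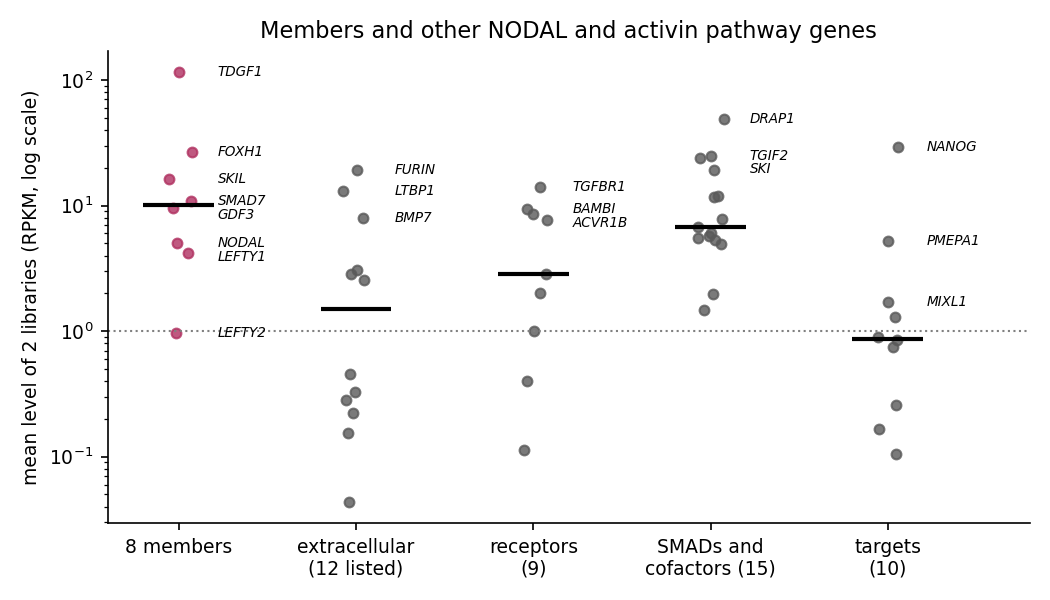
Mean level of the 2 libraries in RPKM (log axis) for the members and for the listed genes of the 4 role lists; each dot is a gene, thick bars are medians and the dotted line is 1 RPKM. The members' median is 10.2 RPKM, and those of the extracellular, receptor, SMAD and target lists are 1.50, 2.85, 6.71 and 0.871 RPKM.

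The target genes were mostly low. Of 10 targets, NANOG at 27.5 and 31.1 RPKM and PMEPA1, a feedback inhibitor of SMAD signalling, at 6.31 and 4.07 RPKM were the 2 that reached 1 RPKM in both libraries. MIXL1 was next by mean level, at 0.796 and 2.62 RPKM. Of 8 tested targets, 4 reached a gap of 2-fold, against 10.9% of all tested genes, and these were named after their values were seen. Toward replicate 2 they were MIXL1 (31 and 104 reads) and GSC (11 and 33, a mean normalized count of only 23.3), transcription factors known from mesendoderm. Toward replicate 1 they were OTX2 (128 and 34 reads) and CCDC80 (89 and 42). The targets went both ways: the median over the 8 was 0.14 on the log2 scale, with 5 higher in replicate 2 and 3 in replicate 1.

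Some markers of other cell types differed between the libraries and others did not differ beyond counting error. The 5 primitive streak and mesoderm markers were all listed, and they share TBXT, MIXL1, EOMES and GSC with the targets. They summed to 1.77 and 4.70 RPKM, the higher sum in replicate 2. MIXL1 and GSC make up most of it, and the intervals of MESP1 (12 and 21 reads), TBXT (8 and 9) and EOMES (7 and 8) held equal levels. The neuroectoderm list, with PAX6 not listed, summed to 165 and 93.4 RPKM, nearly all of it NES (164 and 92.8), while the interval of SOX1 (0.770 and 0.576) held equal levels. The 3 listed fibroblast markers of 5 summed to 45.9 and 71.4 RPKM, made up mostly of THY1, which pluripotent cells also carry; COL1A1 stood at 7.58 and 1.02 RPKM. Those of trophoblast and amnion summed to 0.129 and 0.139 RPKM, with 2 of 4 listed. Of the 8 primed markers 4 were higher in each library, with a median difference of 0.063 (log2). They ran from POU5F1, 2.09-fold higher in replicate 2, to SALL4, 1.81-fold higher in replicate 1. Their part in the differences of the members was not tested.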

How the data were processed

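Poly(A)-selected RNA was sequenced as paired-end reads. The authors deposited a single table of normalized counts, a signal in which each gene's count was divided by 1 size factor per library. All values in both columns used (100%) were whole multiples of 1 step within 0.01 reads, so whole reads were recovered. Trimmomatic 0.36, STAR, featureCounts 1.5.3, DESeq2 1.26.0 and hg38 appear without roles, per the submitters' processing notes. Neither the annotation nor the strand setting was given in the sources used here.

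Columns were matched to the labels by treatment, time and replicate number. Another 7 columns matched no sample and were not used. They include the E8 columns, which name another time than the labels, and a further column of treatment and time as in the libraries used. The planned test against E8 was therefore not run.

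Lengths and positions came from GENCODE release 29 (GRCh38). RPKM is the normalized count per kilobase of merged exon, per 1000000 of the mean normalized total of both libraries. Differences are log2(normalized count + 1), over 16148 genes with a mean of at least 10. Counting intervals are exact binomial (Clopper-Pearson, 95%). Without molecular identifiers they cover only the error of counting. TMM came from edgeR 4.0.16 and quantile normalization from limma 3.58.1, in R 4.3.3. The recovery of whole reads and the coverage of the counting interval were tested on simulated counts, and the other steps were not. The naming rule takes all members, the 3 highest genes of each role list by mean RPKM, and the genes that are not listed. Some genes of the target list are not reported here and were left out of its counts. Members and lists were chosen with earlier results of these data known. Replicates may be technical, since the labels do not say whether they came from separate cultures.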

Additional observations from a re-analysis of the deposited data

How the results depend on the processing

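Of 130 values recomputed under an alternative, 114 stayed within a set margin. This count includes values that could hardly leave it. They are levels with 1 library left out, and mean levels under another scale, which nearly cancels over the 2 libraries. The margin was the SD over the libraries for levels and the counting interval for each member's difference. For counts, shares and the median difference it was a fixed cutoff, not an error. With total reads as the scale, the median difference of the members turned from 0.088 to -0.013 (log2). That scale shifts the median of all tested genes by -0.10. The differences of TDGF1 (-0.36) and SKIL (-0.094) then left their counting intervals, and the 2 members beyond 2-fold were LEFTY1 and LEFTY2 (-1.03) in place of LEFTY1 and GDF3 (0.98). With coding length, the median level rose from 10.2 to 26.7 RPKM and 8 members reached 1 RPKM. The share of all tested genes beyond 2-fold was 16.9% with no minimum and 5.64% with a minimum of 50. With either library left out, the median level was 8.13 or 12.2 RPKM. With 2 libraries, leaving 1 out always moves a member's level by less than the SD, so that setting could not count as moved. TMM, quantile normalization and pseudocounts of 0.5 and 5 changed none of the members' differences beyond their counting intervals. The alternatives of the test against E8 (DESeq2, another filter, a replicate block, each replicate left out) were not run. No paired analysis was possible because the E8 samples have no matched column. LEFTY2 (59 and 31 reads) and GSC (11 and 33) are limited by depth.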
